A study of Mus musculus with 32 samples.

Results

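The 10 genes described here were followed in cultured mouse cortical neurons. They belong to the interleukin-1 (IL-1) and tumour necrosis factor (TNF) systems, except Il6, which encodes a cytokine of the separate IL-6 family. They comprise the ligands Il1a, Il1b, Il18, Il6 and Tnf, the IL-1 receptor antagonist Il1rn, and the receptor genes Il1r1, Il1rap, Tnfrsf1a and Tnfrsf1b. The members were taken by symbol from the table of raw read counts, where all 10 were found among 49671 genes. The study asked how synthetic oligoribonucleotides that carry the sequence of an extracellular microRNA (miRNA), and that can reach the RNA-sensing Toll-like receptor 7, change the transcriptome of neurons. It sequenced 32 libraries, in 8 groups of 4 biological replicates. The cultures came from forebrains of late embryonic C57BL/6 wild-type mice, labelled WT, and were kept in Neurobasal medium with B27 supplement, so that all groups share strain, genotype and medium. At each of the 2 times, 6 h and 5 d, cultures were untreated or were exposed to the control Mut.oligo, to miR-124-5p, or to miR-92a-1-5p. Mut.oligo is a let-7b sequence with base changes that served as the control for sequence specificity.

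IL-1α, IL-1β and TNF are early signals of innate immunity. IL-1α and IL-1β bind the receptor encoded by Il1r1, which signals only together with the accessory protein encoded by Il1rap, whereas the Il1rn product occupies the receptor without signalling. TNF acts through the receptors encoded by Tnfrsf1a, which is found on most cells, and Tnfrsf1b, which is more restricted and in brain is abundant on microglia. In the brain, microglia are the best-known source of IL-1β and TNF, and Toll-like receptor 7 drives transcription of these cytokines through NF-κB and AP-1.

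The sequence of miR-92a-1-5p and the promoters of Il1a, Il1b and Tnf are shown first, since they are the exposure and the genes called at 6 h. The link between these sequences and the changes was not tested. The mature miR-92a-1-5p sequence, from the RefSeq record of Mir92-1 (GRCm38.p6, chr14:115044437-115044459, plus strand), has 23 bases, of which 69.6% are G or U. The capitals mark its seed, bases 2 to 8.
miR-92a-1-5p: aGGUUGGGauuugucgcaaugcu
The promoter windows below hold the 250 bases before the RefSeq start of Il1a (chr2:129309973-129310222), Il1b (chr2:129371140-129371389) and Tnf (chr17:35202008-35202257), all GRCm38.p6, minus strand and written in the direction of the gene. The capitals mark matches to the core promoter motif TATAAA and, in the first window, to the AP-1 motif, searched as TGANTCA.
Il1a: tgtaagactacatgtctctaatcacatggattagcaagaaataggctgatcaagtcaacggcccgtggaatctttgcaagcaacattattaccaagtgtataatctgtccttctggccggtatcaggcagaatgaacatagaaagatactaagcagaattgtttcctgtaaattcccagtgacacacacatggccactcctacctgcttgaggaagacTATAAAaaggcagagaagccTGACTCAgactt
Il1b: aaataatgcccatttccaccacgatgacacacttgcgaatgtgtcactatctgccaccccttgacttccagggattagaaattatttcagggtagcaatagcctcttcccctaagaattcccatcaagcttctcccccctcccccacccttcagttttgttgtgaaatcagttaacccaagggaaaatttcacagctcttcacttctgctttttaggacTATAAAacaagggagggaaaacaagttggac
Tnf: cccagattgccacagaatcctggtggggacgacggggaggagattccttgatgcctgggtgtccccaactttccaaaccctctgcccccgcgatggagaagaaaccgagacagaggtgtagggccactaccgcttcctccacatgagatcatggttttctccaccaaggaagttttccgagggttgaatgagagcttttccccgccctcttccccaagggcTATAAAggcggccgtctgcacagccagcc

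On both strands, TATAAA matched 12.4% of the 32851 RefSeq windows of this length, TGANTCA 6.75%, and the kappaB consensus of NF-κB 7.25%. TATAAA began 35 to 25 bases before the start, in the direction of the gene, in 3 of the 10 members and in 1.75% of all windows, a band that was chosen after these matches were seen. Those 3 members were Il1a, Il1b and Tnf, and the Il1a window also held TGANTCA from base −12 to base −6 relative to its start. Among the other members, the Il6 window held a kappaB match and an AP-1 match, 1 of the 3 Il1rn windows an AP-1 match, 1 of the 2 Il1r1 windows a kappaB match, and the Il18 window TATAAA on the reverse strand. The windows of Il1rap, Tnfrsf1a and Tnfrsf1b held none of these letters. A match of this kind describes the sequence and not a bound site.

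Between 24514090 and 73626029 reads per library were assigned to genes, with a median of 33021610 at 6 h and 50126395 at 5 d, so that 3 reads, taken as the floor of detection, correspond to 0.0407 to 0.122 CPM, the unit of counts scaled to the depth of a library. At 6 h, miR-92a-1-5p libraries held 36367192 to 73626029 reads and untreated ones 30147274 to 37732234. Those of miR-124-5p held 27379790 to 40009485 and those of Mut.oligo 24514090 to 32901396. Raw counts of groups thus also differ with depth. The 32 libraries came from dated experiments given in the labels, called experiment batches here, and no batch was shared between the times. At 6 h, untreated cultures shared a batch with all 4 miR-92a-1-5p libraries, but with only 2 of the miR-124-5p and 2 of the Mut.oligo libraries. Of 48 pairs of replicates within groups, 0 had identical counts. The summed CPM of the neuronal markers lay between 4948 and 6183 in every library, and the 20 microglial markers summed to 48.5 to 117 CPM, so transcripts of microglia were measured in cultures labelled as neurons. In such bulk libraries, fewer cells of a type and less RNA per cell cannot be told apart.

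In untreated cultures at 6 h the members spanned a wide range of levels. Levels of different genes are set side by side in TPM, the transcript share that results when counts are corrected for exonic length. Il18, a cytokine of the IL-1 family that is stored as an inactive precursor, was highest at 21.7 ± 4.01 TPM (SD, n = 4), followed by Tnfrsf1a at 12.4 ± 2.93 TPM. Then came Tnf at 5.52 ± 2.09 TPM, Tnfrsf1b at 4.62 ± 1.05 TPM and Il1rap at 2.92 ± 0.424 TPM, and Tnf and Tnfrsf1b did not differ beyond their spread. Il1b at 0.829 ± 0.333 TPM, Il1a at 0.708 ± 0.376 TPM and Il1r1 at 0.700 ± 0.277 TPM also lay within each other's spread. Il6, at 0.174 ± 0.139 TPM, and Il1rn, at 0.119 ± 0.0657 TPM, were lowest. In reads, Il6 had 3, 0, 4 and 8 counts in these 4 libraries and Il1rn had 5, 2, 5 and 11, so both sat around the floor of 3.

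**Figure D1:**
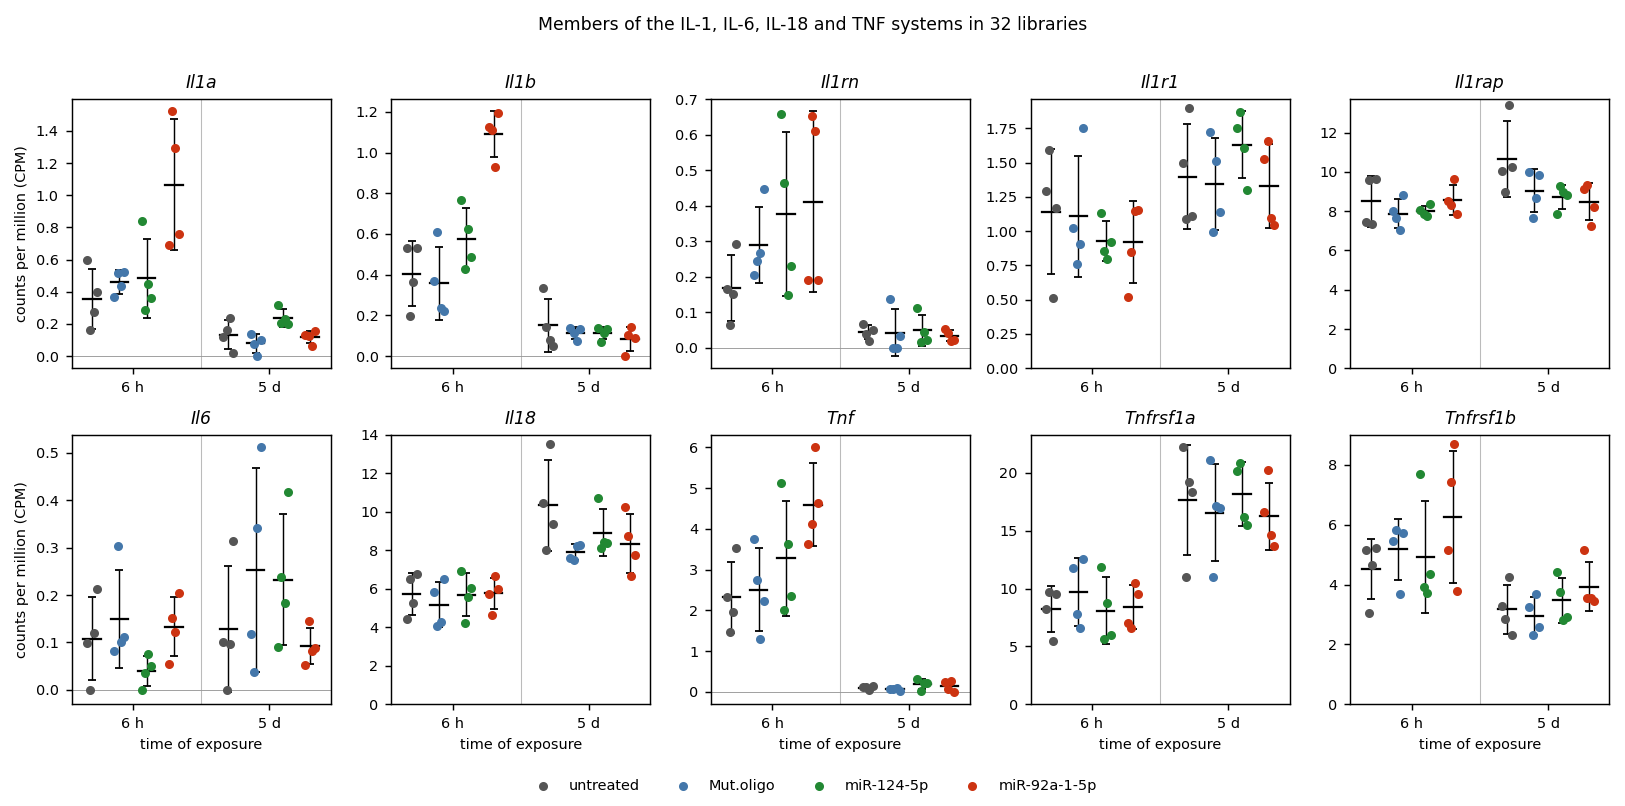
Level of each of the 10 members in all 32 libraries, in CPM, grouped by time of exposure and coloured by condition. Points are libraries, the bar is the mean and the whiskers are 1 SD (n = 4). Il1a, Il1b and Tnf have their highest means in the miR-92a-1-5p libraries of 6 h, and Il1a, Il1b, Il1rn and Tnf are low in all groups at 5 d.

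Exposure to miR-92a-1-5p for 6 h was accompanied by higher transcript levels of the 3 signalling ligands Il1a, Il1b and Tnf, while the fold changes of Il18 and of the receptors Il1rap and Tnfrsf1a were close to 0. In each of the 3 cytokines, every miR-92a-1-5p library lay above every untreated library. On the log2 scale the increases were 1.59 for Il1a, 1.44 for Il1b and 1.02 for Tnf when batches were taken into account. These 3 calls depend on that covariate, because without it none of the 10 members passed the test.

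Il1a, which encodes IL-1α (ENSMUSG00000027399, GRCm38 chr2:129299610-129309972, minus strand), was covered by few reads. The untreated libraries of 6 h held 18, 5, 9 and 15 reads and those exposed to miR-92a-1-5p 25, 70, 53 and 56 reads, in the order of the replicates. Scaled to depth, this was 0.357 ± 0.187 CPM (SD, n = 4) without treatment, between 0.162 and 0.597, and 1.07 ± 0.408 CPM after miR-92a-1-5p, between 0.687 and 1.52. The groups did not overlap, although the lowest exposed library lay only a little above the highest untreated one. Within the 4 shared batches, the miR-92a-1-5p library was the higher one each time, by 1.29, 1.32, 1.67 and 2.11 on the log2 scale. With batch as a covariate the log2 fold change was 1.59 (SE 0.27, 95% interval 1.01 to 2.17, adjusted p = 0.0111, edgeR with Benjamini-Hochberg adjustment), against 1.56 (SE 0.38, adjusted p = 0.683) without it.

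Il1b, which encodes IL-1β (ENSMUSG00000027398, chr2:129364570-129371139, minus strand), lies close to Il1a on the same strand. Its counts were 16, 6, 12 and 20 in untreated cultures and 41, 51, 38 and 88 after miR-92a-1-5p. Scaled to depth, the exposed libraries stood close together, at 1.09 ± 0.114 CPM, and well above the untreated libraries at 0.404 ± 0.161 CPM. The within-batch differences ranged from 0.79 to 2.51 with a median of 1.31, all 4 positive. The largest came from the batch of untreated replicate 2, which held the fewest Il1b reads of the untreated group. The fitted log2 fold change was 1.44 with batch (SE 0.30, 95% interval 0.81 to 2.07, adjusted p = 0.0322, edgeR) and 1.41 without (SE 0.31, adjusted p = 0.584, edgeR). Il1a overlaps the antisense gene Gm14023 and Il1b the antisense gene Il1bos, and the libraries were made with a kit that keeps strand.

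Tnf, the gene of the founding TNF ligand (ENSMUSG00000024401, chr17:35199381-35202007, minus strand), was the best covered of the 3. Untreated libraries held 70, 45, 65 and 133 reads, and miR-92a-1-5p libraries 132, 189, 246 and 341. The raw counts of the groups touch, since the highest untreated library exceeds the lowest exposed one by a single read, but at 1.46 to 3.52 CPM against 3.63 to 6.01 CPM the groups were separate. Means were 2.32 ± 0.879 and 4.60 ± 1.03 CPM. Tnf was higher in all 4 batches, by 0.77 to 1.65 with a median of 0.85. The log2 fold change was 1.02 with batch (SE 0.18, 95% interval 0.63 to 1.41, adjusted p = 0.0154, edgeR), and 0.97 without (SE 0.32, 95% interval 0.30 to 1.64, adjusted p = 0.999, edgeR).

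**Figure D2:**
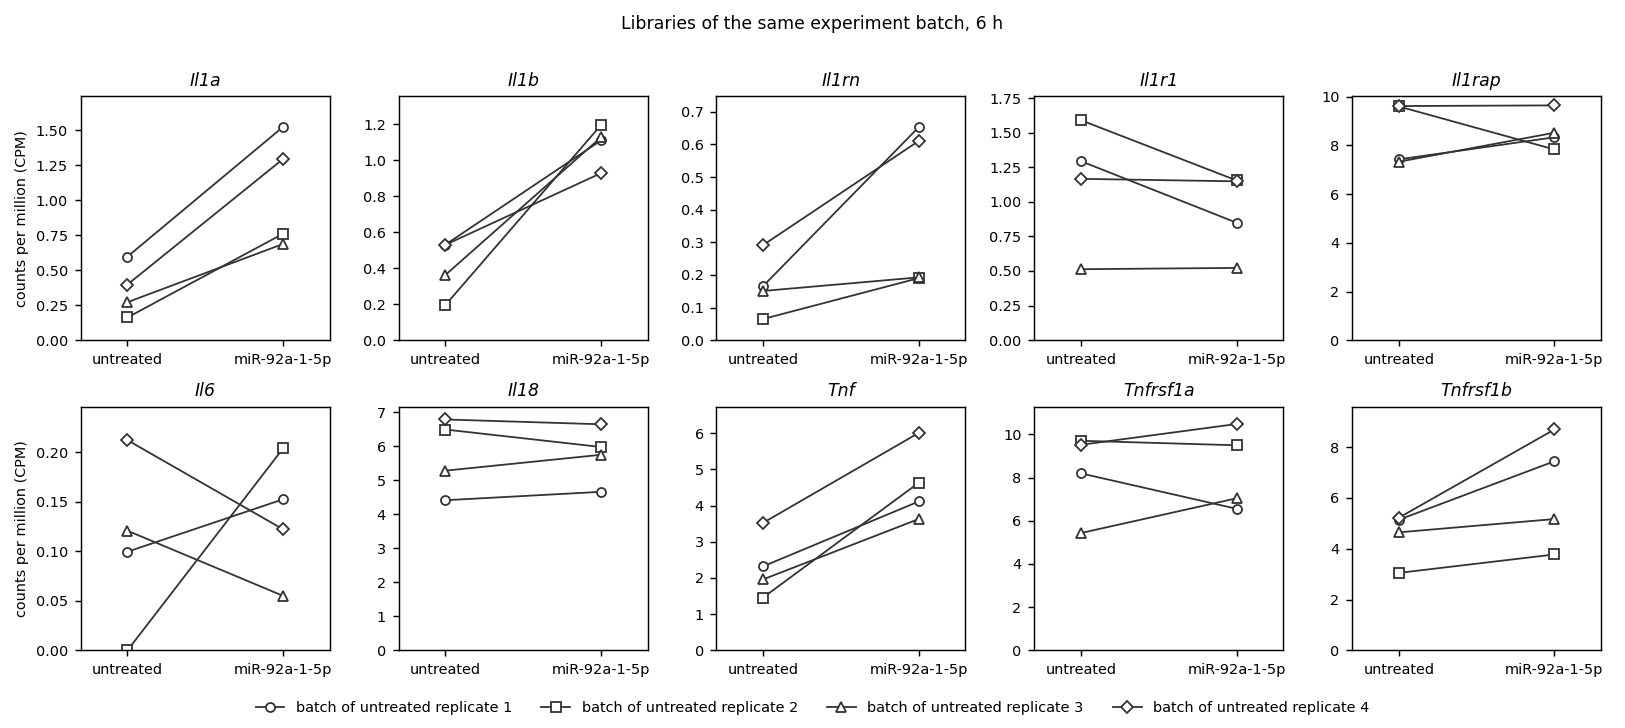
CPM of the 10 members in the untreated and the miR-92a-1-5p library of each of the 4 experiment batches of 6 h; each line joins the libraries of 1 batch. For Il1a, Il1b, Tnf, Il1rn and Tnfrsf1b all 4 lines rise, whereas lines of Il6, Il18 and Tnfrsf1a go both ways.

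Of the 18755 genes tested at 6 h, 0.208% were called for miR-92a-1-5p with batch as a covariate, at an adjusted p under 0.05 and an absolute log2 fold change over 0.5, and 3 of the 10 members were among them. Without the covariate, 0% of genes and 0 of the 10 members were called. The libraries of both groups did not overlap in 3.57% of genes, in either direction, and in 3 of 10 members. The median log2 fold change of the members was 0.40 with batch and 0.39 without, against 0.0059 and 0.0055 over all genes. The calls rest on few libraries: leaving out 1 library at a time in the fit with batch left 0 members called in 6 of 8 cases (each untreated library, and miR-92a-1-5p replicates 2 and 4), 2 (Il1a and Tnf) without miR-92a-1-5p replicate 1, and 3 without miR-92a-1-5p replicate 3. Across these fits the log2 fold change stayed between 1.47 and 1.76 for Il1a, 1.15 and 1.69 for Il1b, and 0.83 and 1.18 for Tnf. DESeq2 with batch called Tnf alone (adjusted p = 6.73e-04), and edgeR on the 8 libraries of both groups with batch called the same 3 members.

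The other ligands and the antagonist did not pass the test in any fit of this comparison. Il1rn, the brake on IL-1 signalling, had 5, 2, 5 and 11 reads in untreated cultures and 7, 30, 25 and 14 after miR-92a-1-5p. It was higher in 4 of 4 batches, by 0.31 to 1.86, with a log2 fold change of 1.24 (SE 0.35, adjusted p = 0.117, edgeR with batch), and its groups overlapped. Il6, a secreted cytokine that is often induced after IL-1 and TNF, had 3, 0, 4 and 8 reads against 2, 7, 5 and 15. It was higher in 2 of 4 batches, with an interval of −1.04 to 1.72 that spans large changes both ways, so a change of Il6 was not detectable at this depth. Il18 had 133, 200, 175 and 256 reads in untreated and 209, 214, 272 and 440 in exposed libraries. In CPM these were 5.74 ± 1.10 and 5.76 ± 0.825, and the interval of the log2 fold change, −0.17 to 0.17 with batch, leaves room only for small changes.

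Among the receptors, the ligand-binding IL-1 receptor gene Il1r1 had 39, 49, 17 and 44 reads in untreated and 19, 39, 47 and 85 in exposed libraries. It was higher in 1 of 4 batches, with a log2 fold change of −0.31 (95% interval −0.71 to 0.10, edgeR with batch). Its partner Il1rap, covered by 224 to 363 and 310 to 577 reads, differed by 0.0074 (95% interval −0.18 to 0.19), and Tnfrsf1a, covered by 180 to 359 and 256 to 699 reads, by 0.03 (95% interval −0.20 to 0.26). Tnfrsf1b was the receptor with the highest fold change: its counts were 155, 94, 154 and 197 without and 188, 342, 356 and 278 with miR-92a-1-5p. The exposed library was higher in all 4 batches, by 0.15 to 0.73, and the log2 fold change was 0.46 (95% interval 0.14 to 0.77, adjusted p = 0.178, edgeR with batch). The receptors were thus not called, and their groups overlapped.

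**Figure D3:**
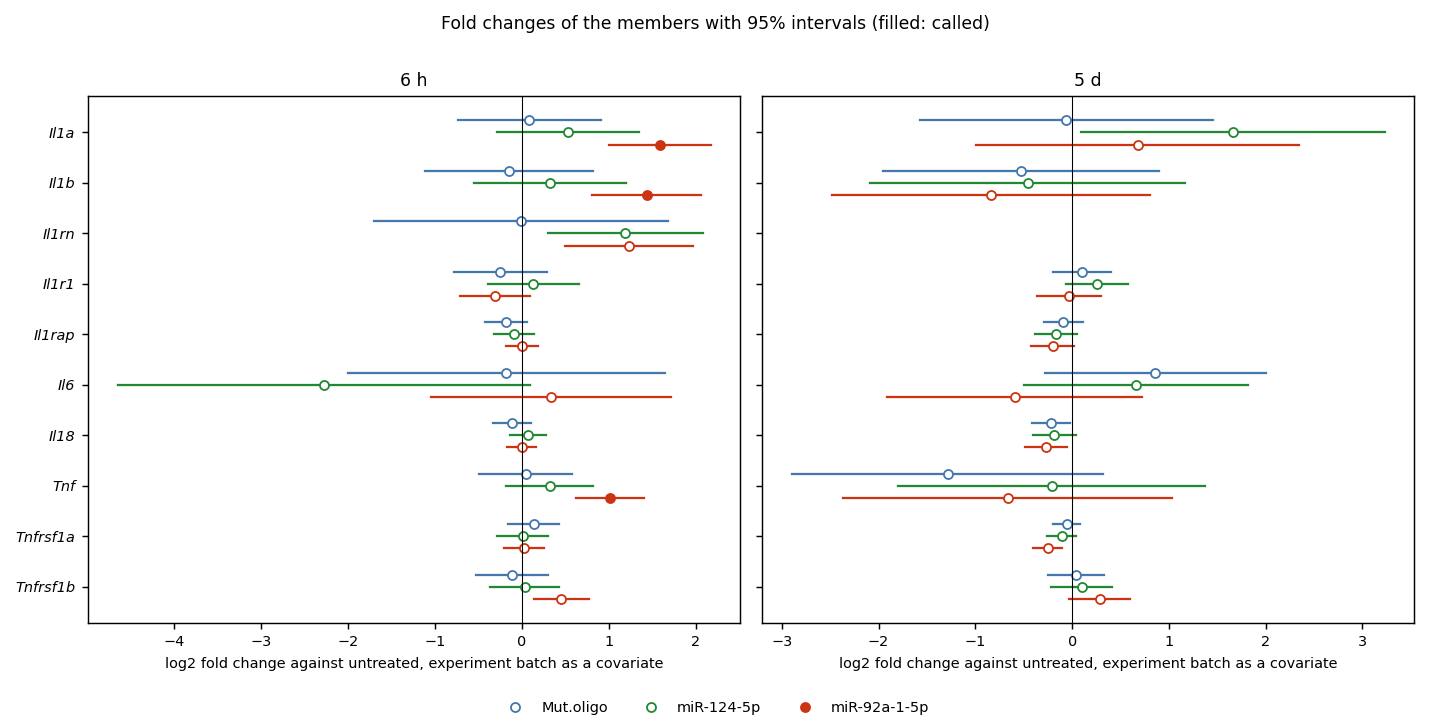
Log2 fold change against untreated of each member for the 3 oligoribonucleotides, with experiment batch as a covariate, at 6 h and at 5 d; lines are 95% intervals and filled points are called. The called points are Il1a, Il1b and Tnf for miR-92a-1-5p at 6 h. Intervals of Il6 and, at 5 d, of Il1a, Il1b and Tnf are wide.

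After 6 h of the other miRNA, miR-124-5p, Il1a counts were 23, 8, 18 and 14, Il1b counts 21, 12, 25 and 19, and Tnf counts 140, 56, 145 and 92. These libraries overlapped the untreated ones for every member, where 3.34% of all genes did not overlap. In both shared batches the miR-124-5p library was the higher one, by 0.37 and 1.05 for Il1a, 0.40 and 0.52 for Il1b, and 0.26 and 0.53 for Tnf. The log2 fold changes against untreated were 0.41 (95% interval −0.46 to 1.29) for Il1a, 0.50 (−0.20 to 1.20) for Il1b and 0.49 (−0.20 to 1.17) for Tnf without the covariate, and 0.53, 0.33 and 0.32 with it. No member was called, and 0% of all genes were called by either fit. Replicate 3 of miR-124-5p and replicate 4 of Mut.oligo were alone in their batch and add nothing to the fits with batch.

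After 6 h of Mut.oligo, Il1a counts were 9, 17, 13 and 14, Il1b counts 9, 20, 7 and 6, and Tnf counts 92, 90, 39 and 60. All 3 overlapped the untreated libraries. In the 2 shared batches Il1a differed by −0.09 and −0.44 and Il1b by −0.50 and −1.13, while Tnf was lower in 1 batch and higher in the other. Fitted log2 fold changes were 0.37 (95% interval −0.53 to 1.26) for Il1a, −0.16 (−0.92 to 0.59) for Il1b and 0.09 (−0.61 to 0.79) for Tnf. No member was called by either fit, where 0% of genes were called without and 0.0213% with batch, and no member's groups were separate, against 4.43% of all genes. All 3 oligoribonucleotides were compared with the same 4 untreated libraries, so these comparisons are not independent.

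The antagonist, Il6 and the receptors were described in the same way for these oligoribonucleotides at 6 h. Il1rn had 18, 13, 6 and 9 reads after miR-124-5p, higher than untreated in both shared batches by 0.55 and 1.14, and 5, 8, 8 and 12 reads after Mut.oligo, higher in 1 of 2 batches. Il6 had 0, 1, 3 and 2 reads after miR-124-5p and 2, 10, 3 and 3 after Mut.oligo. Only 1 of these 8 libraries exceeded 3 Il6 reads, so the gene was at the floor. Il1r1 had 24 to 36 reads after miR-124-5p and 25 to 47 after Mut.oligo, beside 17 to 49 in untreated cultures. In CPM it was at 0.928 ± 0.145 and 1.11 ± 0.440 beside 1.14 ± 0.455 untreated (SD, n = 4). The groups overlapped, although Mut.oligo replicate 4, at 1.75 CPM, lay above the untreated maximum of 1.59. Tnfrsf1b counts were 211, 110, 149 and 170 after miR-124-5p and 134, 192, 110 and 154 after Mut.oligo, which in CPM gave 4.93 ± 1.87 and 5.18 ± 1.01 beside 4.51 ± 1.01 in untreated and 6.27 ± 2.21 in miR-92a-1-5p libraries (SD, n = 4). These means differ by less than the spread of the miR-92a-1-5p group. Il1rap was at 8.01 ± 0.269 and 7.88 ± 0.734 CPM beside 8.50 ± 1.29 untreated, and Tnfrsf1a at 8.07 ± 2.89 and 9.69 ± 2.94 CPM beside 8.21 ± 1.97. The median log2 fold change of the 10 members was 0.06 for miR-124-5p and 0.14 for Mut.oligo, against −0.0033 and −0.0004 over all genes. With batch these medians were 0.10, with 8 of 10 members above 0, and −0.11, with 3 of 10 above 0, so the sign for Mut.oligo turned.

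Set directly against Mut.oligo at 6 h, miR-92a-1-5p had higher Il1b by 1.58 on the log2 scale (SE 0.32, 95% interval 0.90 to 2.25), Il1a by 1.20 (SE 0.37, 95% interval 0.41 to 1.98) and Tnf by 0.88 (SE 0.32, 95% interval 0.21 to 1.56). With batch, the values were 1.58, 1.50 and 0.97. The 3 intervals exclude 0 before adjustment, but no gene passed after adjustment over all genes, with 0% called by either fit (smallest adjusted p of the 3 genes 0.815, edgeR with batch). Against miR-124-5p the differences were 1.15 for Il1a, 0.91 for Il1b and 0.49 for Tnf without batch, and 1.06, 1.11 and 0.70 with it. They too were not called. In the 2 batches that held both, miR-92a-1-5p was above Mut.oligo by 1.76 and 1.76 for Il1a, 1.29 and 2.15 for Il1b, and 0.68 and 1.64 for Tnf. miR-124-5p against Mut.oligo gave 0 called members, with 0% of genes called. After adjustment, no member was thus shown to differ between the oligoribonucleotides, and the intervals above give the differences these libraries allow.

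Microglia are a known source of these cytokines, and their markers were set beside the result. The 20 microglial markers summed to 57.5 to 79.7 CPM in untreated and 60.7 to 81.6 CPM in miR-92a-1-5p libraries of 6 h, with reads for 19 of 20 in all of them. The log2 difference of the means was 0.05 (exact permutation test, two-sided, p = 0.6, adjusted p = 0.952 over 30 marker tests, n = 4 each), and within batches it ranged from −0.06 to 0.13. With 4 libraries each this test can detect little, so its p does not show equal levels. A shorter list of 6 microglial genes differed by −0.11 and was lower in all 4 batches. In the same libraries the called fold changes of the 3 cytokines were 1.02 to 1.59. The part of microglia in these cytokine values was not tested, and summed markers cannot show which cells held the cytokine reads. For miR-124-5p the summed markers ran from 48.5 to 84.6 CPM and for Mut.oligo from 48.8 to 93.5 CPM, a wider spread than in the untreated group. Across the 16 libraries of 6 h, Pearson's r with the microglial sum was 0.732 for Tnfrsf1a, 0.683 for Tnfrsf1b and 0.619 for Il18, against 0.512 for Tnf, 0.337 for Il1a and 0.068 for Il1b. These r values are descriptive, since the libraries share batches and groups. The astrocyte sum was low where the microglial sum was lowest, at 415.5 CPM in miR-124-5p replicate 2. It was high where the microglial sum was highest, at 915.1 CPM in Mut.oligo replicate 4. No r was computed with other cell types, so the r values are not shown to be particular to microglia. Among themselves the cytokines had r of 0.825 for Il1b with Tnf, 0.766 for Il1a with Il1b and 0.741 for Il1a with Tnf.

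**Figure D4:**
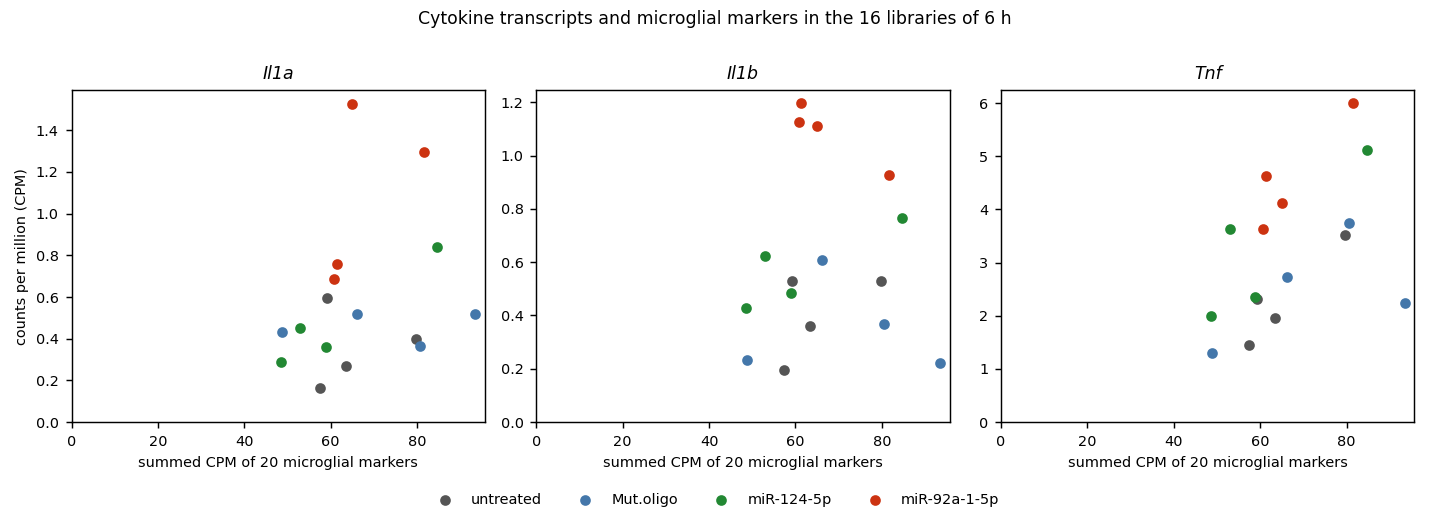
CPM of Il1a, Il1b and Tnf against the summed CPM of 20 microglial markers in the 16 libraries of 6 h, coloured by condition. The miR-92a-1-5p libraries lie within the range of the other groups on the horizontal axis, at 60.7 to 81.6 CPM, and above all untreated libraries on the vertical axis for Il1a, Il1b and Tnf.

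The genes most like the mean standardized log2 CPM of Il1a, Il1b and Tnf over the 16 libraries of 6 h, among 13474 genes, were Ccl3 (r = 0.881), Ccl4 (0.857), Ccl9 (0.796), Ptgs2 (0.792) and Cd14 (0.743). Ccl3, Ccl4 and Ccl9 encode chemokines, Ptgs2 encodes cyclooxygenase-2, and Cd14 encodes a co-receptor of Toll-like receptors. Ccl3 had 136, 130, 122 and 269 reads in untreated and 350, 446, 489 and 590 in miR-92a-1-5p libraries, against 283, 110, 274 and 262 after miR-124-5p and 205, 207, 96 and 129 after Mut.oligo. Since these genes were picked for their likeness to the cytokines in the same libraries, their values describe that choice and are no independent evidence of a shared response. With batch as a covariate, Ccl3 (log2 fold change 1.03, SE 0.17, adjusted p = 0.00984) and Ccl9 (0.67, SE 0.10, adjusted p = 0.00536) were called for miR-92a-1-5p by edgeR. Ptgs2 (0.80), Cd14 (0.70) and Ccl4 (0.55) were not, at adjusted p of 0.104, 0.098 and 0.236.

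The remaining genes of the pathways, from lists that held no member, showed few calls in these comparisons. For miR-92a-1-5p at 6 h with batch, 0 of 6 tested IL-1 and IL-18 ligands, receptors and regulators, 0 of 9 inflammasome and release genes, 0 of 12 IL-1 receptor signalling genes, 0 of 6 TNF superfamily ligands, 0 of 19 TNF receptor signalling genes and 0 of 17 IL-6 family genes were called. Of 25 targets of NF-κB, 1 was called, Ccl3, and the median log2 fold change of these targets was 0.27 against 0.0059 over all genes. Of these 25 values 20 were above 0 and 5 below, and the uncalled ones ranged from Lcn2 (−0.23) to Cxcl2 (1.28, adjusted p = 0.0503, edgeR with batch), which encode a secreted iron carrier and a chemokine. The chemokine genes Cxcl1 (1.01, adjusted p = 0.222) and Ccl2 (0.94, adjusted p = 0.115) were not called either. The NF-κB list was chosen with earlier results of these data known, and it held Ccl3 and Ccl4, also picked above as like genes. Its median and its count of values above 0 may therefore partly restate that choice and are no independent evidence of a shared response. The medians of the 6 other lists lay between −0.0053 and 0.0623. Without the covariate, 0 genes of all 7 lists were called.

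At 5 d the 3 cytokines were near the floor in every group, and no member was called for any oligoribonucleotide. Tnf counts were 7, 6, 2 and 9 in untreated cultures, 4, 4, 5 and 2 after Mut.oligo, 14, 2, 10 and 10 after miR-124-5p, and 9, 4, 13 and 0 after miR-92a-1-5p. Il1a counts were 7, 8, 12 and 1 without treatment, 7, 4, 0 and 6 after Mut.oligo, 14, 12, 10 and 9 after miR-124-5p, and 5, 6, 3 and 7 after miR-92a-1-5p. Il1b counts were 20, 7, 4 and 3, then 7, 6, 4 and 8, then 6, 4, 5 and 6, then 0, 5, 7 and 4 in the same order of groups. In all of these the oligoribonucleotide groups overlapped the untreated libraries. Il1rn, with 0 to 7 reads per library, was too low to be tested, so that 9 of the 10 members entered the test at 5 d. Il6 held 0 to 31 reads, the most in Mut.oligo replicate 4, and its groups overlapped as well.

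Against untreated at 5 d, log2 fold changes for miR-92a-1-5p were −0.11 (SE 0.62) for Il1a, −0.76 (SE 0.62) for Il1b and 0.44 (SE 0.71) for Tnf. For miR-124-5p they were 0.87 (SE 0.57), −0.44 (SE 0.60) and 0.84 (SE 0.68), and for Mut.oligo −0.68 (SE 0.64), −0.38 (SE 0.58) and −0.60 (SE 0.77). The 95% intervals of all 9 values include 0, and changes were not detectable at this depth. Directions also turned with batch as a covariate: for miR-92a-1-5p, Il1a was then 0.68 and Tnf −0.67, and in the 2 shared batches Il1a differed by 0.13 and 2.76 and Tnf by −0.41 and −3.81. For miR-124-5p, Tnf turned from 0.84 to −0.21. With batch, Il1a after miR-124-5p reached 1.66 (95% interval 0.09 to 3.23, adjusted p = 1, edgeR), which was not called, and in both shared batches it was higher than in untreated cultures. Over all 19333 genes tested, 0% were called for Mut.oligo, 0% for miR-124-5p and 0.00517% for miR-92a-1-5p, and with batch as a covariate 0.0466%, 0.0259% and 0.352%. The groups of no member were separate, compared with 1.98%, 1.44% and 2.56% of all genes. Untreated cultures at 5 d shared 3, 2 and 2 batches with the 3 groups, and untreated replicate 3 was alone in its batch and adds nothing to the fits with batch.

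The better covered members at 5 d were Il18, Il1rap and the TNF receptors. Il18 counts were 621, 398, 692 and 567 in untreated cultures and ranged from 384 to 502 after Mut.oligo, from 368 to 477 after miR-124-5p and from 322 to 423 after miR-92a-1-5p. Scaled to depth, Il18 was at 10.3 ± 2.35, 7.90 ± 0.414, 8.92 ± 1.22 and 8.35 ± 1.53 CPM in the same order (SD, n = 4). The log2 fold changes without batch were −0.35, −0.20 and −0.28. Within batches Il18 was lower than in untreated cultures in the 3 batches shared with Mut.oligo and in both batches shared with each miRNA, and it was not called in any of these comparisons. The summed markers of other cells were also lower in every shared batch of all 3 comparisons. For oligodendrocyte lineage markers the log2 difference of means was −0.74 for miR-92a-1-5p, −0.42 for miR-124-5p and −0.52 for Mut.oligo. For endothelial and mural markers it was −0.39, −0.40 and −0.62, for astrocyte markers −0.18, −0.12 and −0.30, and for microglial markers −0.06, −0.04 and −0.23 (smallest adjusted p = 0.286, exact permutation tests, n = 4 each). That adjusted p belongs to lists already at the floor of the test, so it does not show equal levels. Neuronal markers differed by 0.03, 0.02 and 0.05. With batch as a covariate, edgeR called 4 of 8 tested oligodendrocyte lineage markers lower for miR-92a-1-5p, 2 for miR-124-5p and 1 for Mut.oligo. Of 10 endothelial and mural markers it called 3, 2 and 2 lower. Over all genes, 0.352%, 0.0259% and 0.0466% were called in the same order. No other marker was called, and none without batch. The marker lists were chosen with earlier results of these data known. The part of these cell types in the values of the members was not tested. Il1rap counts were 597, 445, 686 and 619 in untreated cultures, 504, 400, 483 and 597 after Mut.oligo, 346, 546, 391 and 401 after miR-124-5p, and 347, 451, 352 and 369 after miR-92a-1-5p. In CPM these were 10.7 ± 1.92, 9.04 ± 1.10, 8.74 ± 0.616 and 8.48 ± 0.945 (SD, n = 4), lower on average in each exposed group but overlapping. Tnfrsf1a ranged from 545 to 1322 reads in untreated cultures, and from 575 to 1227 reads in the exposed ones, with overlap in each comparison. Tnfrsf1b was at 3.17 ± 0.812 CPM in untreated cultures, 2.95 ± 0.625 after Mut.oligo, 3.48 ± 0.753 after miR-124-5p and 3.93 ± 0.811 after miR-92a-1-5p, differences within about 1 SD. Il1r1 was at 1.40 ± 0.383, 1.34 ± 0.334, 1.63 ± 0.246 and 1.33 ± 0.305 CPM in the same order, again within the spread. The median log2 fold change of the 9 tested members was −0.20 for Mut.oligo, 0.15 for miR-124-5p and −0.11 for miR-92a-1-5p, where the medians over all genes were 0.0031, 0.0027 and −0.0013. With batch they were −0.06, −0.11 and −0.25, so the sign for miR-124-5p turned. Comparisons of the oligoribonucleotides with each other at 5 d called 0 members, where 0% of genes were called without batch. With batch, 0.0103% of genes were called for miR-92a-1-5p against Mut.oligo, 0.0103% against miR-124-5p and 0% for miR-124-5p against Mut.oligo. Il1a was higher after miR-124-5p than after Mut.oligo in 3 of 3 shared batches, by 1.55 on the log2 scale (95% interval 0.26 to 2.83, adjusted p = 1.00, edgeR) and 1.72 with batch. It was lower after miR-92a-1-5p than after miR-124-5p in 4 of 4 batches, at −0.98 (95% interval −2.22 to 0.27) without batch and −0.98 with it. Neither difference was called, on 0 to 14 reads a library.

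Whether the response to miR-92a-1-5p differed between the times was tested as an interaction in the 32 libraries. For Il1b, the fold change at 5 d minus that at 6 h was −2.17 on the log2 scale (SE 0.67, adjusted p = 1, edgeR), and −2.30 with batch (SE 0.79, adjusted p = 0.259, edgeR). For Il1a the differences were −1.67 (SE 0.72) and −0.96 (SE 0.81), and for Tnf −0.54 (SE 0.78) and −1.64 (SE 0.80). None was called. Over 20425 genes, 0% were called without and 0.137% with batch for miR-92a-1-5p, against 0% and 0.00979% for Mut.oligo and 0% and 0.0049% for miR-124-5p, with 0 members called each time. The responses at 6 h and 5 d were hence not shown to differ for any member.

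The levels in untreated cultures themselves differed between the times. Tnf fell by 4.40 on the log2 scale from 6 h to 5 d (SE 0.49, 95% interval −5.41 to −3.40, adjusted p = 9.72e-09, edgeR), from 70, 45, 65 and 133 reads to 7, 6, 2 and 9 reads in libraries that were deeper on average. Il1rn fell by 1.88 (SE 0.73, adjusted p = 0.0294, edgeR), from 5, 2, 5 and 11 reads to 4, 2, 1 and 3 reads. It was too low to be tested at 5 d alone and entered this fit through its reads at 6 h, so its call gives no independent support. Il1a fell by 1.47 (SE 0.51, adjusted p = 0.0154, edgeR) and Il1b by 1.41 (SE 0.45, adjusted p = 0.00961, edgeR). In contrast, Tnfrsf1a rose by 1.09 (SE 0.23, adjusted p = 1.56e-04) and Il18 by 0.83 (SE 0.15, adjusted p = 3.72e-05). Tnfrsf1a counts were 247, 299, 180 and 359 at 6 h and 1322, 545, 982 and 1108 at 5 d, and Il18 went from 133 to 256 reads to 398 to 692 reads, in both cases with no overlap. Il1rap (0.31), Il1r1 (0.28), Il6 (0.22) and Tnfrsf1b (−0.54, adjusted p = 0.0602) were not called, Il1rap because its fold change lay under the threshold. The calls of Tnf, Il1b, Tnfrsf1a and Il18 held without any 1 of the 8 libraries. The call of Il1a was lost without untreated 5 d replicate 4 (−1.05, adjusted p = 0.0725, edgeR) and without untreated 6 h replicate 1 (−1.08, adjusted p = 0.104). The call of Il1rn was lost in 5 of the 8 cases, with values from −1.42 (adjusted p = 0.154, without untreated 6 h replicate 4) to −1.90 (adjusted p = 0.0533, without untreated 5 d replicate 4). Tnfrsf1b was called lower without untreated 5 d replicate 3 (−0.67) or untreated 6 h replicate 2 (−0.69).

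**Figure D5:**
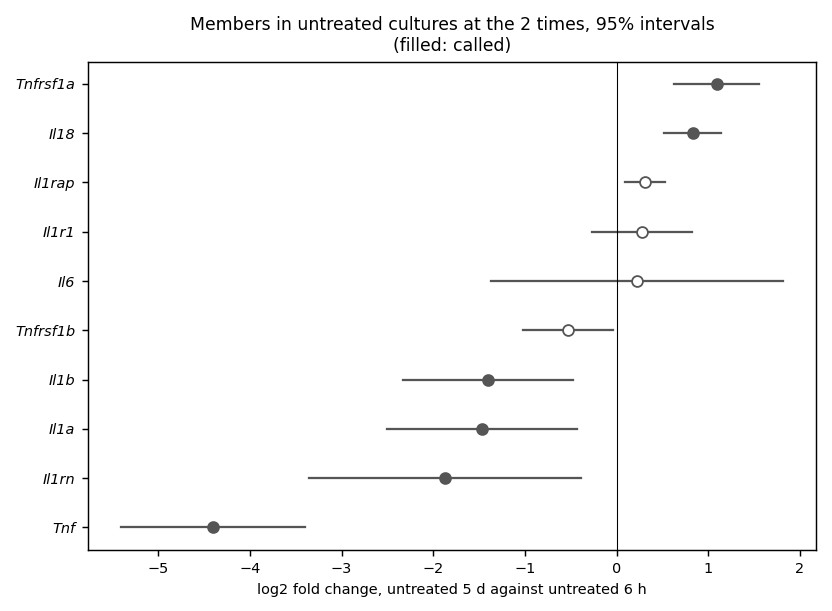
Log2 fold change of each member between untreated cultures of 5 d and of 6 h, with 95% intervals; filled points are called. Tnf, Il1rn, Il1a and Il1b lie below 0 and Tnfrsf1a and Il18 above, and the interval of Il6 is the widest of those that cross 0.

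Of all 20425 genes, 19.1% were called higher and 14.3% lower at 5 d, beside 2 and 4 of the 10 members, so many genes differed between these groups. The 4 members called lower include Il1rn, which entered the fit through its reads at 6 h. The order of the levels changed accordingly: at 5 d Il18 was at 42.3 ± 9.23 TPM and Tnfrsf1a at 28.7 ± 7.52 TPM (SD, n = 4), followed by Il1rap at 3.96 ± 0.689 and Tnfrsf1b at 3.50 ± 0.860 TPM, which did not differ beyond their spread. Il1r1 was at 0.924 ± 0.243 TPM. Il1b at 0.332 ± 0.279, Il1a at 0.282 ± 0.194, Tnf at 0.275 ± 0.124 and Il6 at 0.224 ± 0.235 TPM overlapped, and Il1rn was lowest at 0.0336 ± 0.0149 TPM. Tnf thus ranked among the top 3 members at 6 h and among the lowest 3 at 5 d. No batch held libraries of both times, so time of culture and experiment cannot be told apart here.

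Cell type markers moved between these groups too. The 10 astrocyte markers summed to 668 ± 147 CPM at 6 h and 2658 ± 775 CPM at 5 d (SD, n = 4 each), and all 10 were called higher at 5 d, with a median log2 fold change of 2.06. The microglial markers summed to 57.5 to 79.7 CPM at 6 h and 69.2 to 116 CPM at 5 d, with 15 of 19 tested markers above 0, 4 called higher and 0 lower. The 4 other microglial markers were below 0, the lowest at −0.99. Of 12 neuronal markers 2 were called higher and 3 lower, of 10 endothelial and mural markers 3 higher and 1 lower, and of 9 oligodendrocyte lineage markers 0 higher and 3 lower, with a median of −0.51. The part of the cell type makeup in the time differences was not tested.

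Of the 100 tested genes of the 7 pathway lists, 23 were called higher and 12 lower at 5 d, shares near the 19.1% and 14.3% of all genes, so the counts that follow describe the lists and are not particular to them. Among targets of NF-κB, 5 of 25 were called higher at 5 d and 6 lower, with the chemokine genes going both ways. Ccl3 (−3.07), Ccl4 (−3.64) and Ccl5 (−4.29) fell, whereas Cxcl1 (3.78), Ccl2 (2.35) and Cxcl10 (1.71) rose, as log2 fold changes that were called by edgeR. Of 10 tested inflammasome and release genes, 4 were called higher, among them Casp1 (0.68), whose product cleaves the IL-1β and IL-18 precursors, and 1 lower, the sensor Nlrp3 (−2.73). Of 17 IL-6 family genes, 6 were called higher, among them Osmr (2.35), Lif (1.52), and the signal transducer Il6st (0.96), and 2 lower, including the feedback inhibitor Socs3 (−1.63). Of 6 IL-1 and IL-18 ligands, receptors and regulators, 3 were called higher, Il33 (1.21) and the neuronal receptor-like genes Il1rapl1 (1.21) and Il1rapl2 (1.67), and 0 lower. IL-1 receptor signalling genes had 1 of 12 called higher, Irak2 (1.06), and 1 lower, the inhibitory Irak3 (−1.41). TNF superfamily ligands had 2 of 11 called higher and 1 lower, and TNF receptor signalling genes 2 of 19 higher and 1 lower, the adaptor Tradd (−1.14).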

How the data were processed

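Cultured cortical neurons were sequenced with a strand-specific mRNA kit. Per the labels and the study's methods, the authors aligned reads with STAR 2.7.3a to GRCm38 and counted them per gene and by strand with featureCounts of Subread 2.0.0, and deposited raw counts of 49671 genes in 32 libraries. Per the study's methods, the authors tested with DESeq2 at its defaults. Here, edgeR 4.0.16 in R 4.3.3 (quasi-likelihood, TMM) was fitted to the 16 libraries of a time, on genes with at least 5 counts in 3 libraries, with Benjamini-Hochberg adjustment over all genes. A call needed an adjusted p under 0.05 and an absolute log2 fold change over 0.5. The interactions and the comparison of untreated groups used all 32 libraries. Experiment batch as a covariate, DESeq2 1.42.0, other normalization, filters and left-out replicates were alternatives. CPM used the total counts of each library, without TMM, and TPM the exonic length of the GRCm38 annotation. Within-batch log2 differences of the members, and the gene values behind Pearson's r, used library sizes scaled by TMM and 0.5 added reads. Marker sums were compared by exact permutation test, which ignores batch and cannot go below p = 0.0286 with 4 against 4. After adjustment over the 30 tests, lists at this floor had an adjusted p of 0.286. A marker list could therefore hardly pass, and a high adjusted p does not show equal levels. Scripts were tested on simulated data.

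The members and gene lists were chosen with earlier results of these data known. The 10 members were named by symbol, and like genes were the 5 with the highest Pearson's r. For miR-92a-1-5p and untreated cultures at 6 h, replicate numbers did not pair the samples (r of −0.197 to 0.024), whereas libraries of the same batch deviated together (0.188 to 0.289). At 5 d the contrast was less clear, as some equal replicate numbers named the same batch. There, r with untreated cultures was −0.171 to 0.328 by replicate number and 0.047 to 0.328 by batch. Depth was 24514090 to 73626029 counts.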

Additional observations from a re-analysis of the deposited data

Results flagged for a closer look

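In 4 of 80 groups of 4 libraries, 1 library stood further from the other 3 than Dixon's 95% critical ratio allows, where about 1 group in 20, here 4, is expected by chance. Il6 was at 0.304 CPM in Mut.oligo replicate 2 of 6 h, on 10 reads against 2 to 3 in the others. Il18 was at 10.7 CPM in miR-124-5p replicate 1 of 5 d, with the others at 8.11 to 8.45 CPM. Tnfrsf1b was at 7.71 CPM in miR-124-5p replicate 1 of 6 h, with the others at 3.72 to 4.35 CPM. Tnfrsf1b was also at 5.15 CPM in miR-92a-1-5p replicate 1 of 5 d, with the others at 3.45 to 3.57 CPM.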

How the results depend on the processing

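The counts of members called depended on the batch covariate for miR-92a-1-5p against untreated at 6 h: 0 without it, 3 with it, 3 on both groups alone with batch (a setting added after seeing the data), and 1 under DESeq2 with batch. Leaving out 1 library in the fit with batch gave 0 to 3. The other members in the remaining 5 comparisons with untreated gave 32 values, of which 0 were called under any alternative run and 15 changed sign. With the replicate block, 0 members were called in each comparison with untreated, and 7 for untreated 5 d against 6 h, where Tnfrsf1b joined (−0.55, adjusted p = 0.0459, edgeR); DESeq2 also called 7, and leaving out 1 library gave 4 to 7.

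Some values that were not called changed sign. For miR-92a-1-5p at 6 h, Il18 was 0.0039 with at least 10 counts and under DESeq2 with batch, 0.0011 with batch and 0.011 without filter. At 5 d, Il1a was 0.82 under DESeq2 with batch, 0.68 with batch and 1.11 on both groups alone with batch, and Tnf −0.75, −0.67 and −1.60. For miR-124-5p at 5 d, Tnf was −0.18, −0.21 and −0.20 in the same order. For Mut.oligo at 6 h, Il1a was −0.31 and Tnf −0.27 on both groups alone with batch, and Tnf −0.0051 under DESeq2 with batch; at 5 d, Il1a was 0.23 on both groups alone with batch. The list of 6 microglial genes gave −0.11 (miR-92a-1-5p, 6 h) and 0.029 (miR-124-5p, 5 d). The cause of these changes was not tested.

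Without 1 replicate each, miR-92a-1-5p at 6 h ranged from −0.049 to 0.076 for Il1rap, −0.074 to 0.88 for Il6, −0.098 to 0.089 for Il18 and −0.12 to 0.12 for Tnfrsf1a. At 5 d it ranged from −0.49 to 0.28 for Il1a, −1.13 to 0.0074 for Il1b and −0.078 to 0.84 for Tnf. Mut.oligo ranged from −0.58 to 0.012 for Il1b and −0.16 to 0.37 for Tnf at 6 h, and from −0.68 to 0.39 for Il1b at 5 d. Il1b after miR-124-5p at 5 d ranged from −0.74 to 0.33, and Il6 in untreated 5 d against 6 h from −0.69 to 0.83. Depth limits Il6 and Il1rn at both times and Il1a, Il1b and Tnf at 5 d, where a library holds few reads of each.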
